A study of Mus musculus with 4 samples.

Results

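The genes described here are 50 mouse genes of the primary cilium and of cystic kidney disease, chosen by name from the 52636 gene identifiers counted in sorted kidney cells with and without *Eya1*, a transcriptional coactivator and phosphatase needed for nephron progenitors. All 50 were found in the count files. They fall into polycystins and fibrocystin, the inversin compartment, the transition zone, ciliary membrane proteins, the intraflagellar transport (IFT) trains IFT-B and IFT-A, their motors, the BBSome, regulators linked to cystic kidneys, ciliary transcription factors and a tubulin-modifying enzyme.

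RNA-seq was performed on tdTomato+ cells sorted by FACS from mouse embryonic kidneys at about E12.5 to E12.75. Control cells were *Eya1*CreER/+;tdTomato and *Eya1*cKO cells were *Eya1*CreER/+;*Eya1*fl/fl;R26-tdTomato, on a mixed C57BL/6J and 129/Sv background. Both genotypes thus carried the CreER allele of *Eya1* and the reporter, both received tamoxifen, and kidneys were taken 48 h after the first dose. Since the reporter marks cells in which *Eya1*-driven CreER was active and their descendants, the sorted cells are a lineage and not a single cell type. There were 2 libraries per genotype, each from 5000 cells, and the study describes combined cell suspensions, from which different cells were sorted simultaneously for each library of a genotype. The *P*-values below therefore measure the spread between such portions, which may be technical.

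The primary cilium is a single, non-motile projection that most kidney epithelial cells carry on their surface. It is built by IFT, in which kinesin-2 motors carry IFT-B trains to the tip and cytoplasmic dynein 2 returns them with IFT-A. A gate at the base, the transition zone, and the BBSome coat decide which membrane proteins enter and stay. Loss of the polycystins gives polycystic kidney disease, and mutations in transition zone, inversin compartment and IFT genes give nephronophthisis and related cystic syndromes. RFX transcription factors switch on many ciliary genes through a promoter element called the X-box.

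The X-box is shown first because it is what part of these genes share outside the counts. A RefSeq promoter window on GRCm38, from 250 bases before to 50 bases after a start, was given for 42 of the 50 genes (46 windows), and none for *Anks6*, *Bicc1*, *Foxj1*, *Glis2*, *Ift122*, *Ift80*, *Ift81* and *Tmem67*. An X-box on either strand was found in 6 of the 46 windows (13%) and in 502 of all 32851 windows (1.53%). Its shorter core GTTGCC, which can be part of a full site, was in 45.7% of the genes' windows and 12.5% of all windows. The genes' windows also differed in composition, with a median GC content of 60% against 52.7%. The 7 sites in 6 genes follow, 5′ to 3′ on the strand of the gene, with the X-box in capitals. They were all found with the same pattern, GTNRCC and RGYAAC around a spacer of at most 3 bases (N any base, R A or G, Y C or T). Their likeness was therefore set by the search and is no result about these genes. They come from transition zone, BBSome, IFT and tubulin ligase genes, and a match is a description of these letters, not evidence of binding.
*Ahi1*: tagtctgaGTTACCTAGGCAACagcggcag
*Bbs1*: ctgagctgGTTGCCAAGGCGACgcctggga
*Ift57*, first: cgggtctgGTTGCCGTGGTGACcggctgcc
*Ift57*, second: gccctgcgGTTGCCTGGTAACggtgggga
*Tctn1*: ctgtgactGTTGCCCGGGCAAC
*Tctn2*: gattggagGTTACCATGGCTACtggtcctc
*Ttll9*: ctcctttgGTTGCCGTAGCAACgagacgca
The printed bases of *Ttll9* lie at chr2:152962466-152962495 on the plus strand and span the start site. Those of *Ift57* lie at chr16:49699199-49699228 and chr16:49699226-49699254, upstream of the RefSeq start, although the GENCODE gene begins at 49699233, inside the second stretch, and those of *Tctn2* at chr5:124598679-124598708, also upstream. The sites of *Ahi1* (chr10:20952560-20952589), *Bbs1* (chr19:4906605-4906634, minus strand) and *Tctn1* (chr5:122264411-122264432, minus strand) lie just after the RefSeq start. The values of these 6 genes are given with their role groups below, as reads, CPM or a log2 fold change. Their log2 fold changes were of both signs.

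Gene counts summed to between 17457452 and 37999342 reads in a library, with the *Eya1*cKO libraries the shallower pair. Levels are given in CPM, counts relative to the TMM-scaled library total, on which 3 reads correspond to between 0.0801 and 0.171 CPM, and these limits cover counting error only. *Eya1* itself had 6612 and 6420 reads in Control and 377 and 219 in *Eya1*cKO. Cell type markers differed between genotypes. Summed nephron progenitor markers were 1440 and 1449 CPM in Control and 560 and 592 CPM in *Eya1*cKO, with 9 of 10 called lower, whereas podocyte markers were 1125 and 1113 against 4134 and 4262 CPM, with 10 of 10 called higher. Stroma markers (6 of 10 called higher and 1, *Tbx18*, lower, 2763 to 2776 against 5752 to 5931 CPM), endothelial markers (8 of 8 called higher, 618 to 629 against 1068 to 1127 CPM), adrenal cortex markers (8 of 8 called higher, 27.7 to 36.3 against 736 to 778 CPM) and chromaffin markers (8 of 10 called higher and 1, *Elavl4*, lower, 33.2 to 40.9 against 575 to 625 CPM) also moved with genotype. Early nephron epithelium markers (5 of 10 called lower, 1577 to 1579 against 990 to 1047 CPM), ureteric bud markers (2 of 12 called lower, 490 to 497 against 345 to 364 CPM) and tubule markers (4 of 8 tested called higher, 166 to 172 against 409 to 420 CPM) also differed, as did neural crest and Schwann markers (1 of 6 tested, *Sox10*, called higher, 66.1 to 66.9 against 93.2 to 94.5 CPM). Blood and macrophage markers had 0 of 5 tested genes called by edgeR or DESeq2 (1 at an unadjusted *P* under 0.05), with *Hba-a1*, *Hba-a2* and *Hbb-bs* at 0 reads in every library. The part of these markers' cell types in the values below was not tested, and in such bulk samples fewer cells of a type and less RNA per cell cannot be told apart.

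As a group, the ciliary and cystic genes had summed levels close to each other in the 4 libraries, and few were called. Their summed level was 2061 and 2087 CPM in Control and 2022 and 2281 CPM in *Eya1*cKO, 104% of the Control mean. Of the 50 genes, all of which passed the filter on low counts, 1 was called higher (*Glis2*) and 0 were called lower by edgeR's quasi-likelihood test at an adjusted *P* under 0.05. Over the 19041 genes tested, 9.56% were called, 5.15% higher and 4.41% lower. The 50 genes had a median log2 fold change of 0.06, against 0.02 for all genes tested, with 27 of the 50 positive and 23 negative. Without *Eya1*cKO 2 these medians were -0.16 and -0.11. At an unadjusted *P* under 0.05 there were 10 of the genes, 6 higher and 4 lower, against 28.8% of all genes tested. The 10 were *Pkd1*, *Pkd2*, *Nek8*, *Tctn2*, *B9d1* and *Glis2*, higher, and *Nphp4*, *Iqcb1*, *Dync2h1* and *Ttll9*, lower. DESeq2's Wald test called 1 gene higher (*Glis2*) and 2 lower (*Nphp4* and *Dync2h1*), against 15% of the 20306 genes to which it gave an adjusted *P*. No IFT train or BBSome gene was called by either tool or passed an unadjusted *P* of 0.05.

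Genes of similar level were compared next. Among genes with a mean of 10 to 200 CPM, 1 of the 46 ciliary and cystic genes was called, against 13% of all 9395 genes in that range. The *Eya1*cKO libraries lay above both Control libraries for 15 of the 50 genes and below both for 14, and overlapped them for the other 21. Over all genes tested those shares were 25.3% above and 30% below. For the 49 genes with reads in every library, the 95% interval lay inside a 2-fold change in either direction for 28, while it included a 2-fold rise for 8 and a 2-fold fall for 13, and changes of that size lie within the error of those genes.

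**Figure D1:**
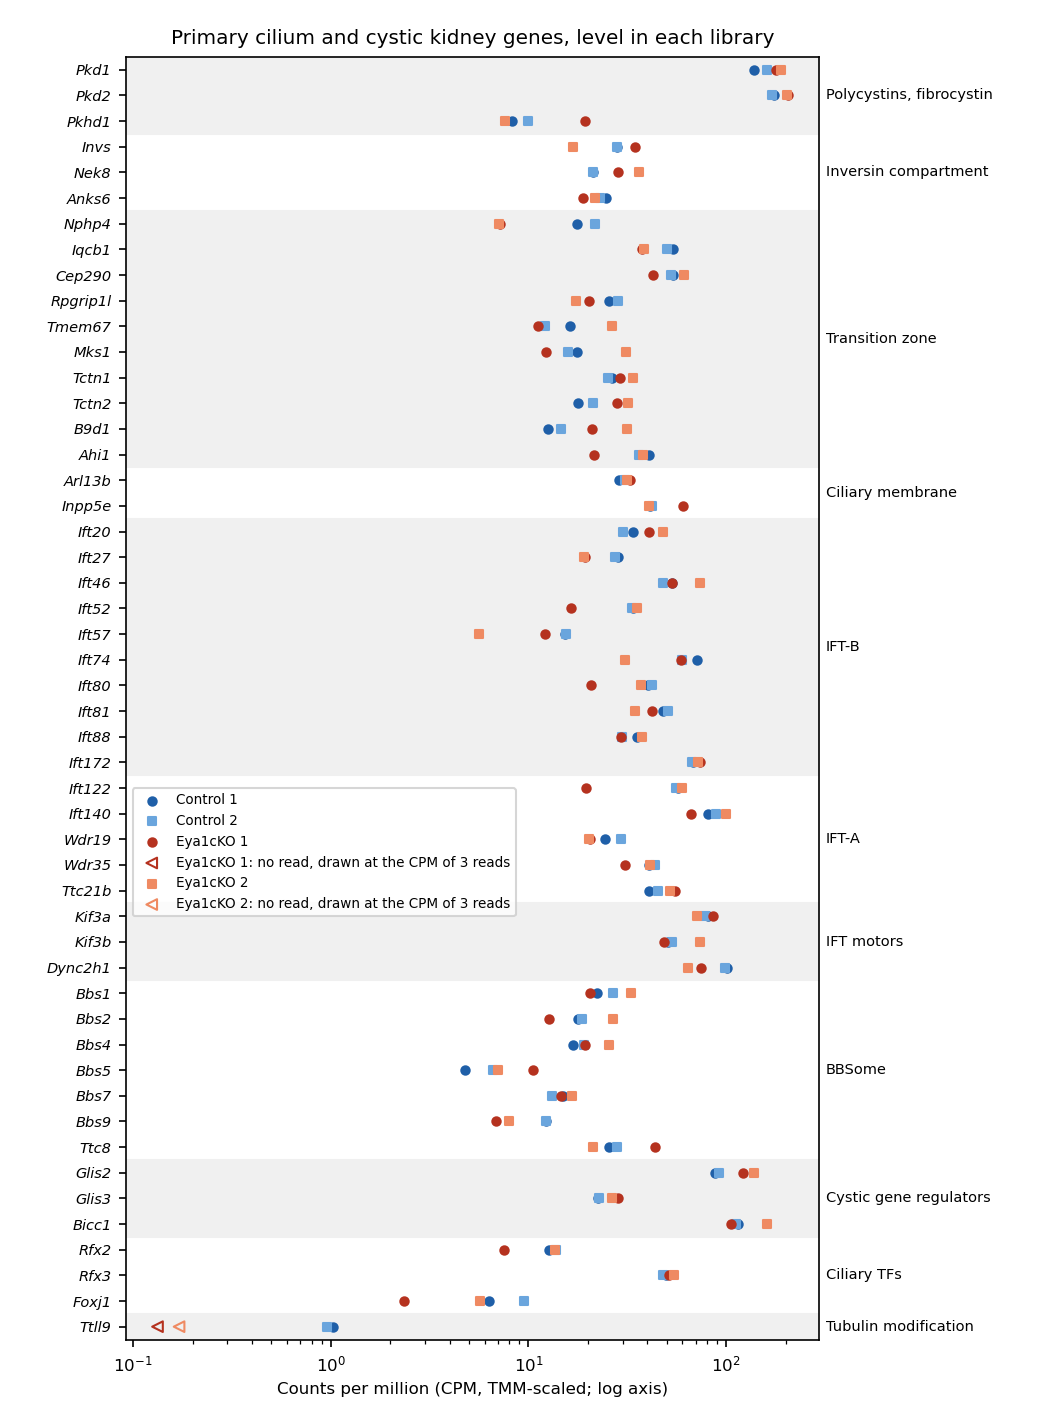
Level of each of the 50 genes in the 4 libraries, in CPM on a log axis, with Control libraries in blue and *Eya1*cKO libraries in red, grouped by role. Of the 50 genes 46 have a mean between 10 and 200 CPM, and *Ttll9*, without a read in *Eya1*cKO, is drawn as open triangles at the CPM of 3 reads.

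Levels between genes were compared per kb of exon in the Control libraries. *Ift74* stood highest with 24.8 CPM per kb, followed by *Kif3a* (22.2), *Ift20* (21), *Glis2* (20.6), *Pkd2* (17), *Bicc1* (15.3) and *Ift52* (12.1). *Pkhd1*, which encodes fibrocystin of autosomal recessive polycystic kidney disease, was the second lowest with 0.636 CPM per kb, and *Ttll9* the lowest with 0.285.

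The regulators linked to cystic kidneys had a summed level of 113% of the Control mean in *Eya1*cKO 1 and 144% in *Eya1*cKO 2. *Glis2*, a zinc finger transcription factor also known as NPHP7 whose loss causes nephronophthisis, was the gene that passed the test. It lies at chr16:4594713-4624924 on the plus strand of GRCm38 (ENSMUSG00000014303) and had 3062 and 3462 reads in Control and 2738 and 2438 reads in *Eya1*cKO. Scaled to library size these are 87.7 and 92.5 CPM in Control and 121 and 139 CPM in *Eya1*cKO, so that both mutant libraries lay above both controls. *Glis2* rose from 90.1 ± 3.4 to 130 ± 13 CPM (SD, n = 2), a 1.44-fold change with a log2 fold change of 0.52 (SE 0.12, 95% interval 0.24 to 0.81, edgeR adjusted *P* = 0.043).

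The call of *Glis2* was near the threshold and was lost under 4 of the 9 alternatives run on all libraries, whose adjusted *P* ranged from 0.0063 to 0.112, and without either Control library. Exons of *Pam16* on the opposite strand cover 10.4% of its exonic length, and the strand setting of the counting is not stated. *Glis3*, a relative of *Glis2* whose loss gives cystic kidneys and neonatal diabetes, had 22.5 and 22.8 CPM in Control and 28.4 and 26.4 CPM in *Eya1*cKO (log2 fold change 0.28, 95% interval -0.26 to 0.82). *Bicc1*, an RNA-binding protein that restrains cyst formation, had 115 and 112 against 106 and 162 CPM (0.22, -0.22 to 0.65), and its *Eya1*cKO libraries stood on either side of the controls.

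The polycystins, the membrane receptor and channel lost in autosomal dominant polycystic kidney disease, lay slightly above Control in both *Eya1*cKO libraries without passing the test. *Pkd1* had 138 and 160 CPM in Control and 179 and 190 CPM in *Eya1*cKO (log2 fold change 0.31, 95% interval 0.05 to 0.57, adjusted *P* = 0.127). *Pkd2* had 175 and 171 against 204 and 204 CPM (0.24, 0.03 to 0.44, adjusted *P* = 0.132), and its interval is among the narrowest of the 50. These were 2 of the 10 genes with an unadjusted *P* under 0.05, and neither reached a 2-fold change within its interval. *Pkhd1* had 290 and 371 reads in Control and 435 and 133 in *Eya1*cKO, with a log2 fold change of 0.63 (SE 0.48, adjusted *P* = 0.427). The *Eya1*cKO libraries of *Pkhd1* differed 2.54-fold from each other and bracketed the controls, so its direction rested on *Eya1*cKO 1. The 3 genes together were at 121% of Control, 403 and 401 CPM against 321 and 341 CPM.

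In the inversin compartment, a segment of the proximal cilium, *Nek8*, a kinase mutated in nephronophthisis, had 741 and 790 reads in Control and 645 and 639 in *Eya1*cKO. Its log2 fold change was 0.60 (SE 0.24, 95% interval 0.03 to 1.17, adjusted *P* = 0.154), with both *Eya1*cKO libraries above both controls. *Anks6*, the partner that activates *Nek8*, had 864 and 865 against 425 and 382 reads and a log2 fold change of -0.25 (SE 0.25, adjusted *P* = 0.565). *Invs*, encoding inversin itself, had 28.1 and 28.1 CPM in Control and 34.7 and 16.9 CPM in *Eya1*cKO (-0.07, -0.82 to 0.68). None of the 3 was called, and 2 of them had *Eya1*cKO libraries apart from the controls, in opposite directions.

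The transition zone group of 10 genes held the most distant values among genes with reads in every library. *Nphp4*, a scaffold of the nephronophthisis module at chr4:152476706-152563183, had 617 and 812 reads in Control and 162 and 125 reads in *Eya1*cKO. The levels were 17.7 and 21.7 CPM against 7.17 and 7.13 CPM, with the mutant libraries well below both controls and almost equal to each other. The log2 fold change was -1.46 (SE 0.37, 95% interval -2.34 to -0.59) and the adjusted *P* of 0.054 missed the threshold. With a minimum of 10 reads in every library the adjusted *P* was 0.037, with DESeq2 0.0043, and over the 9 alternatives it ranged from 0.0043 to 0.126.

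*B9d1*, a subunit of the tectonic and MKS complex, was at the other end, with 438 and 546 reads in Control and 474 and 550 in *Eya1*cKO. Scaled to depth its level was 12.5 and 14.6 CPM against 21 and 31.4 CPM, and the log2 fold change was 0.91 (SE 0.31, 95% interval 0.17 to 1.65, adjusted *P* = 0.113). Of the same complex, *Tctn2* had 17.8 and 21.3 against 28.1 and 31.9 CPM (log2 fold change 0.61, adjusted *P* = 0.160), *Tctn1* a log2 fold change of 0.27, *Mks1* 0.30 and *Tmem67*, the receptor-like protein of Meckel syndrome, 0.35. *Mks1* had 17.7 and 15.9 against 12.3 and 31 CPM and *Tmem67* 16.2 and 12.1 against 11.2 and 26.4 CPM, and without *Eya1*cKO 2 their log2 fold changes were -0.46 and -0.35. Exons of *Hvcn1* and *Gm15481* on the opposite strand cover 25.5% of *Tctn1*. *Iqcb1* (also NPHP5) had 54 and 50.5 against 37.4 and 38.6 CPM (-0.46, edgeR adjusted *P* = 0.135). *Rpgrip1l* had a log2 fold change of -0.51, *Ahi1*, a Joubert syndrome gene, -0.41, and *Cep290*, which tethers microtubules to membrane at the transition zone, -0.06. *Ahi1* had 40.7 and 36.1 against 21.4 and 38.1 CPM, and with a library left out its value ran from -0.855 to -0.02. The group showed 5 positive and 5 negative log2 fold changes and 0 calls, with edgeR. Its sum was 97.7% of the Control mean, an average of 82.3% in *Eya1*cKO 1 and 113% in *Eya1*cKO 2.

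Both ciliary membrane genes had positive values without a call. *Inpp5e*, the lipid phosphatase that sets the phosphoinositide make-up of the ciliary membrane, had 1447 and 1571 reads in Control and 1370 and 714 in *Eya1*cKO, with a log2 fold change of 0.31 (SE 0.22, adjusted *P* = 0.387). Its levels were 41.4 and 42 CPM against 60.6 and 40.7 CPM, so that *Eya1*cKO 2 lay below both controls. *Arl13b*, the small GTPase that brings *Inpp5e* to the cilium, had 28.8 and 31 against 32.5 and 31.4 CPM (0.10, 95% interval -0.39 to 0.59).

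**Figure D2:**
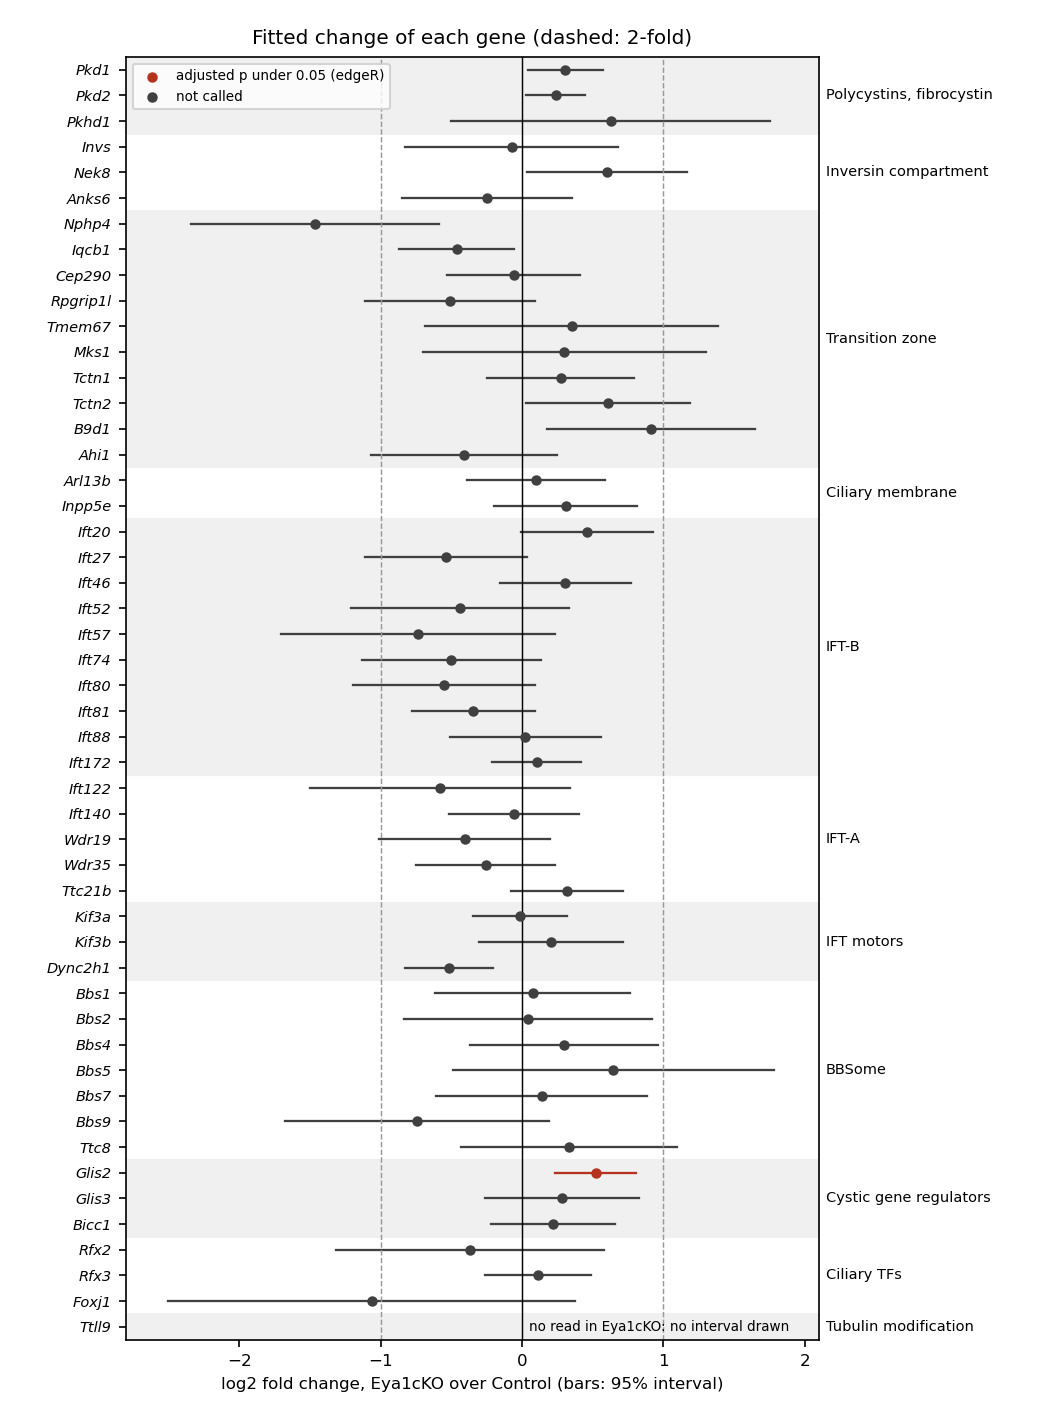
Log2 fold change of each gene, *Eya1*cKO over Control, with its 95% interval as a bar and dashed lines at a 2-fold change. *Glis2* (red) is the gene called by edgeR, 28 of the 49 intervals drawn lie between the dashed lines, and that of *Ttll9* is not drawn because its fitted value, without a read in *Eya1*cKO, is no bound.

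The IFT-B genes, which encode the anterograde train, had a median log2 fold change of -0.39 with 6 negative and 4 positive values, and 0 of 10 were called. *Ift57* had 536 and 582 reads in Control and 274 and 99 in *Eya1*cKO, with a log2 fold change of -0.74 (SE 0.41, adjusted *P* = 0.283). Both *Eya1*cKO libraries were below the controls, at 12.1 and 5.64 CPM against 15.3 and 15.5 CPM, but they differed 2.15-fold from each other. *Ift20*, which also shuttles between Golgi and cilium, had 1179 and 1131 against 917 and 845 reads and a log2 fold change of 0.46 (SE 0.20, adjusted *P* = 0.178), its *Eya1*cKO levels of 40.6 and 48.2 CPM being above 33.8 and 30.2 CPM in Control.

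Of the other IFT-B genes, *Ift27* (28.3 and 27.5 against 19.3 and 19 CPM), *Ift74*, *Ift80* and *Ift81* had lower levels in both *Eya1*cKO libraries than in either control, with log2 fold changes of -0.54, -0.50, -0.55 and -0.35. The *Eya1*cKO libraries of *Ift74* (71.6 and 60 against 59.3 and 30.8 CPM) and *Ift80* (40.1 and 42 against 20.7 and 37.1 CPM) stood apart from each other. With a library left out the log2 fold change of *Ift74* ran from -1.10 to -0.16 and that of *Ift80* from -1.004 to -0.16. *Ift46* had 53.3 and 48 against 53.1 and 73.9 CPM, with a log2 fold change of 0.31 that ran from 0.056 to 0.537 with a library left out. *Ift52* had 34 and 33.6 CPM in Control and 16.5 and 35.5 CPM in *Eya1*cKO. The log2 fold change was -0.44, and 0.061 without *Eya1*cKO 1. *Ift88*, the gene of the hypomorphic mouse model of recessive polycystic kidney disease, had 35.2 and 29.9 CPM in Control and 29.4 and 37.5 CPM in *Eya1*cKO (0.02, 95% interval -0.51 to 0.56). *Ift172* had one of the narrower intervals, with 68.1 and 67.4 against 73.6 and 72 CPM (0.10, -0.21 to 0.42). The summed IFT-B level was 91.4% of Control, with 428 and 405 CPM in Control and 367 and 394 CPM in *Eya1*cKO.

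Among the IFT-A genes, which encode the retrograde train, 4 of 5 log2 fold changes were negative and 0 genes were called. *Ift122* had 1987 and 2093 reads in Control and 444 and 1054 in *Eya1*cKO, with a log2 fold change of -0.58 (SE 0.39, adjusted *P* = 0.370). Its levels of 56.9 and 55.9 CPM in Control stood beside 19.6 and 60.1 CPM in *Eya1*cKO, so that the low value came from *Eya1*cKO 1 alone, without which the log2 fold change was 0.08. *Ttc21b* had 1417 and 1694 against 1239 and 910 reads and a log2 fold change of 0.32 (SE 0.17, adjusted *P* = 0.262), with both *Eya1*cKO libraries above both controls. *Wdr19* had a log2 fold change of -0.40, *Wdr35* of -0.26 and *Ift140* of -0.05. *Ift140* had 80.7 and 89.4 against 66.5 and 100.2 CPM, and its sign turned without *Eya1*cKO 1 (0.22) and without Control 2 (0.008). The summed IFT-A level was 75.8% of the Control mean in *Eya1*cKO 1 and 108% in *Eya1*cKO 2.

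Of the motors, *Dync2h1*, the heavy chain of dynein 2 and a gene of skeletal ciliopathies with cystic kidneys at chr9:6928503-7184446, had 3519 and 3702 reads in Control and 1681 and 1128 in *Eya1*cKO. Its level of 101 and 98.9 CPM in Control and 74.4 and 64.3 CPM in *Eya1*cKO gave a log2 fold change of -0.52 (SE 0.13, 95% interval -0.83 to -0.20), with an adjusted *P* of 0.058 that missed the threshold. The adjusted *P* was 0.040 with a minimum of 10 reads in every library and 0.024 with DESeq2, in a range of 0.024 to 0.148 over the 9 alternatives. The kinesin-2 subunit *Kif3b* had 1768 and 2002 against 1092 and 1299 reads and a log2 fold change of 0.20 (SE 0.21, adjusted *P* = 0.575). In CPM these are 50.6 and 53.5 against 48.3 and 74, on either side of the controls, and without *Eya1*cKO 2 the log2 fold change was -0.12. Its partner *Kif3a* had 81.3 and 78.2 against 85.5 and 71.2 CPM, with a log2 fold change of -0.01 (95% interval -0.35 to 0.32) that turned positive when libraries were scaled by their totals alone.

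The BBSome, an octameric coat that exports membrane proteins from cilia, is covered by 7 genes, of which 6 had positive log2 fold changes and 0 were called. *Bbs9* was the exception, with 431 and 458 reads in Control and 155 and 140 in *Eya1*cKO, which gave a log2 fold change of -0.74 (SE 0.39, adjusted *P* = 0.265). Both its *Eya1*cKO libraries, at 6.86 and 7.98 CPM, were below the controls at 12.3 and 12.2 CPM. *Bbs5* had 166 and 248 against 237 and 123 reads and a log2 fold change of 0.65 (SE 0.48, adjusted *P* = 0.416). *Bbs4* (0.30), *Ttc8* (also BBS8, 0.33), *Bbs7* (0.14), *Bbs1* (0.07) and *Bbs2* (0.05) had intervals on both sides of 0. The values of *Bbs1* and *Bbs2* turned negative without *Eya1*cKO 2 (-0.29 and -0.54) and without Control 1 (-0.07 and -0.009), and that of *Ttc8* without *Eya1*cKO 1 (-0.34). The summed level was 111% of Control.

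Among the ciliary transcription factors, *Foxj1*, the regulator of motile cilia, had few reads in every library, with 221 and 357 reads in Control and 53 and 100 in *Eya1*cKO. Its level was 6.33 and 9.53 CPM against 2.35 and 5.7 CPM, a log2 fold change of -1.06 (SE 0.61, 95% interval -2.50 to 0.37, adjusted *P* = 0.295), and the libraries differed 1.51-fold within Control and 2.43-fold within *Eya1*cKO. *Rfx3*, an activator of genes with an X-box, had 1729 and 1790 against 1159 and 954 reads and a log2 fold change of 0.12 (SE 0.16, adjusted *P* = 0.678). *Rfx2* had 12.7 and 13.7 CPM in Control and 7.57 and 13.7 CPM in *Eya1*cKO (-0.37, 95% interval -1.31 to 0.58).

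*Ttll9*, a ligase of the tubulin tyrosine ligase-like family that adds glutamate to tubulin, had 36 and 36 reads in Control and no read in either *Eya1*cKO library. At the Control level 22.5 and 17.5 reads would correspond to these depths. With 3 reads set as a floor in each *Eya1*cKO library, its level there would be 6.55-fold below Control. This floor covers counting error only and is no lower bound on the change. The upper end of edgeR's interval for the log2 fold change was -1.91, or 0.266 of the Control level, a smaller fall. The adjusted *P* was 0.104 in edgeR and *Ttll9* was called under no alternative in which it could be fitted. Of 1221 genes averaging 30 to 45 reads in Control, 109 (8.93%) likewise had no read in either *Eya1*cKO library.

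**Figure D3:**
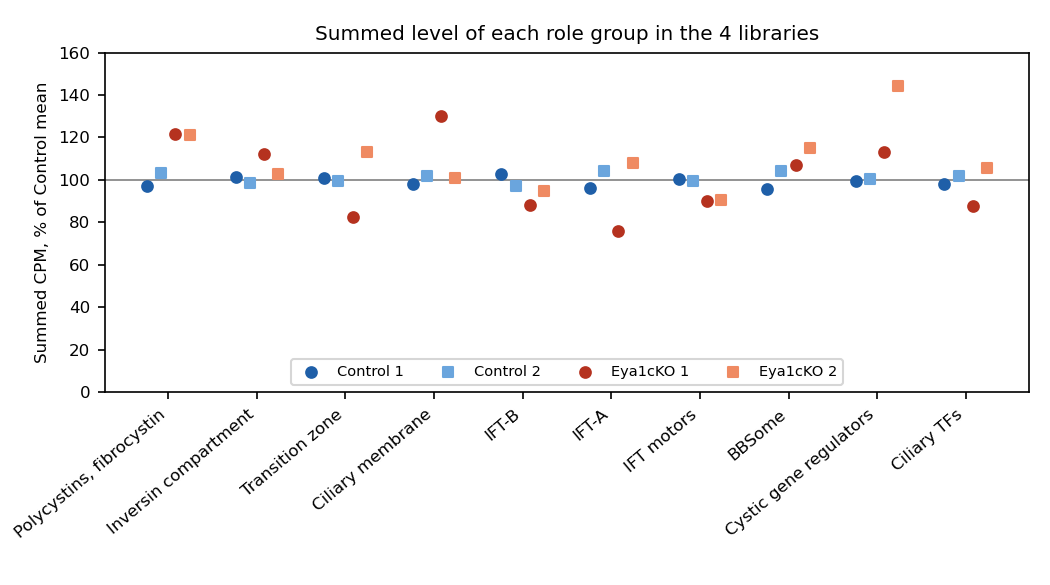
Summed CPM of each role group in each library, as a percentage of the Control mean, without *Ttll9*. Both *Eya1*cKO libraries are above both controls for the polycystins and fibrocystin, the inversin compartment, the BBSome and the cystic gene regulators, both are below for IFT-B and the motors, and the IFT-A, transition zone and transcription factor sums of *Eya1*cKO 1 and 2 lie on opposite sides of 100%.

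The *Eya1*cKO libraries differed more from each other than the Control libraries did. Over the 49 genes with reads in every library, the median fold between the Control libraries was 1.07 and that between the *Eya1*cKO libraries 1.31. More than 1.5-fold separated the libraries for 1 gene in Control (*Foxj1*) and for 18 genes in *Eya1*cKO, and more than 2-fold for 10 genes in *Eya1*cKO, *Ift122* being the widest at 3.06-fold. These genes did not all move with 1 library, since *Eya1*cKO 2 was above *Eya1*cKO 1 for 30 genes and below it for 19. All genes of 10 to 200 mean CPM had median folds of 1.08 and 1.26, with 1.43% and 27.6% over 1.5-fold. The depth, the share of reads not aligned (6.32% and 6.69% in Control, 12.9% and 12.7% in *Eya1*cKO), the share of reads on no gene (13.9% and 12.9% in Control, 22.7% and 20.9% in *Eya1*cKO) and the genotype went together, so their parts in this spread cannot be told apart.

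**Figure D4:**
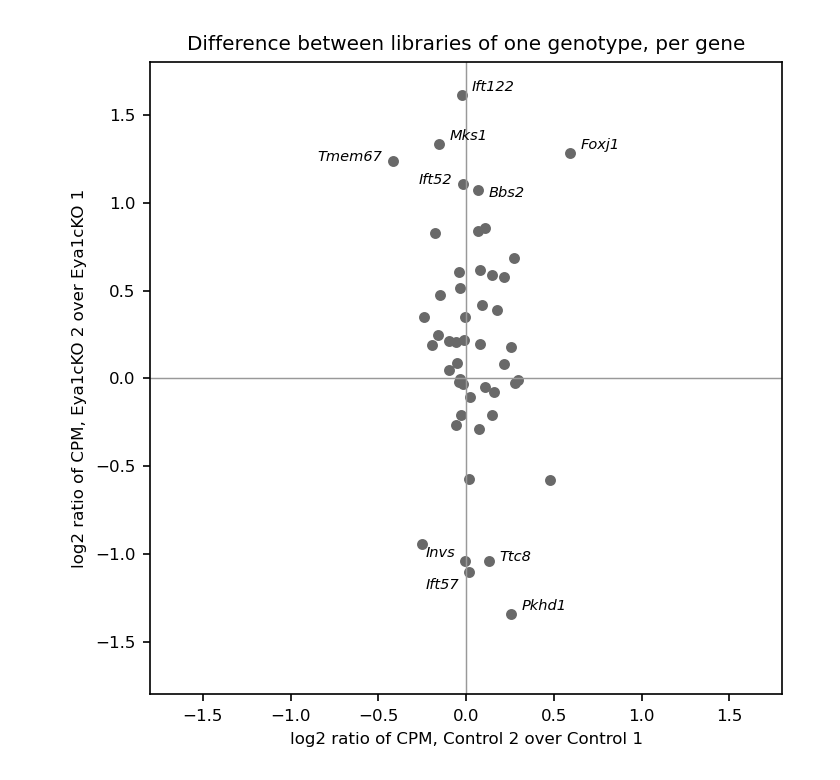
Log2 ratio of CPM between the libraries of a genotype, Control 2 over Control 1 on the horizontal axis and *Eya1*cKO 2 over *Eya1*cKO 1 on the vertical axis, for the 49 genes with reads in every library. The points spread further along the vertical axis, and the 10 named genes differed more than 2-fold between the *Eya1*cKO libraries.

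Without *Eya1*cKO 1 or without *Eya1*cKO 2, where the single mutant library is assumed to vary as the controls do, 6 of the 50 genes (16.5% of all genes tested in both) were called in the same direction both times. These were *Pkd1*, *Pkd2* and *Glis2*, higher, and *Nphp4*, *Iqcb1* and *Dync2h1*, lower. A further 27 genes were called without only 1 of the libraries, which makes 20 and 19 of the 50 genes in those fits, against 33.5% and 35.3% of all genes tested. With Control 1 or Control 2 left out instead, edgeR called 0 of the 50 genes and 0.109% and 0.108% of all genes tested, and 1 and 0 of the 50 had an unadjusted *P* under 0.05.

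Other genes of the same pathways, from lists of genes outside the 50, were counted in the same way. Of 171 such genes tested edgeR called 1 higher and 5 lower, against 5.15% and 4.41% of all genes tested, with a median log2 fold change of -0.06. DESeq2 called 11 of the 171, against 15% of all genes, and 33 had an unadjusted *P* under 0.05, against 28.8%. By edgeR 0 of the other 18 IFT and motor genes were called (median -0.03), 0 of the other 27 transition zone and nephronophthisis genes (0.04) and 0 of the other 20 cystic kidney genes (-0.06). In those lists, read against the same shares of all genes, 3, 2 and 2 genes had an unadjusted *P* under 0.05, and DESeq2 called 0, 0 and 1. The call among 20 BBSome and ciliary membrane genes was *Arl3*, the GTPase that *Arl13b* activates, which fell from 52.3 and 53.3 to 28 and 29.9 CPM (log2 fold change -0.87, adjusted *P* = 0.031).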

How the data were processed

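The deposited values are counts of reads per gene in 4 libraries. The authors prepared random-primed strand-specific SMARTer libraries, mapped reads to mm10 with HISAT2, counted them with HTSeq on Ensembl genes and used DESeq2, and the strand setting of HTSeq is not given in the sources used here. The labels give 6 kidneys per genotype from 4 females, and the methods give other numbers. Rows naming no gene (31.8% or more of reads recorded) were left out.

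Counts were tested in R 4.3.3 with edgeR 4.0.16: TMM factors, filterByExpr (minimum count 10), glmQLFit and glmQLFTest (legacy = FALSE) on genotype, with Benjamini-Hochberg adjustment over all 19041 genes and a threshold of 0.05. The SE was taken as the size of the log2 fold change divided by the root of F. The script was checked on simulated counts. Alternatives were 3 other scalings, 2 filters, DESeq2 1.42.0, legacy quasi-likelihood, thinned Control counts, each library left out in turn and a replicate block.

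Coordinates and exon lengths are from GENCODE M21 (GRCm38), a later release than that counted on. Exons of 13 of the 50 genes overlap another gene, all antisense. Libraries of a genotype differed beyond counting noise (chi-square per gene 9.68 in Control and 49.6 in *Eya1*cKO), so none was a duplicate.

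The genes and lists were chosen with earlier results of these data known. Each of the 50 genes is named, with full statistics for called genes, genes with 3 reads or fewer in every library of a genotype and the extremes of each role group. From other lists up to 3 called genes per direction are named.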

Additional observations from a re-analysis of the deposited data

How the results depend on the processing

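Over all genes tested, 1820 calls became 1055 without the low-count filter, 3054 with DESeq2, 1096 with legacy quasi-likelihood, 1172 with thinned Control counts and 621 with the replicate block, and between 23 and 7925 with a library left out. Of the 50 genes, 0 were called higher by edgeR without the filter, with legacy quasi-likelihood, with thinned counts and with the replicate block, where *Glis2* lost its call (adjusted *P* = 0.112, in a range of 0.0063 to 0.112 over the alternatives), and between 0 and 12 with a library left out. At an unadjusted *P* under 0.05 those first 4 settings gave 6, 6, 5 and 3 genes higher. The number called lower was 2 with at least 10 reads in every library and 2 with DESeq2 (*Nphp4* and *Dync2h1* both times), and between 0 and 13 with a library left out. The median log2 fold change of the 50 ran from -0.16 (without *Eya1*cKO 2) to 0.0785 with a library left out, beside all-gene medians of -0.11 and -0.16 in those fits. The 2 medians were 0.11 and -0.18 with DESeq2 and 0.05 and -0.21 without the filter, where more genes were fitted. *Kif3a* turned to 0.024 with library totals alone. The cause of these differences was not tested. The replicate numbers did not pair the libraries: deviations of same-numbered libraries correlated at r = 0.00905 over 19041 genes.

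With a library left out the direction turned for 17 genes, whose log2 fold changes ran from -0.28 to 1.06 (*Pkhd1*), -0.75 to 0.29 (*Invs*), -0.33 to 0.19 (*Cep290*), -0.35 to 0.90 (*Tmem67*), -0.46 to 0.88 (*Mks1*), -0.046 to 0.52 (*Inpp5e*), -1.05 to 0.061 (*Ift52*), -0.16 to 0.20 (*Ift88*), -1.54 to 0.08 (*Ift122*), -0.37 to 0.22 (*Ift140*), -0.17 to 0.084 (*Kif3a*), -0.12 to 0.50 (*Kif3b*), -0.29 to 0.40 (*Bbs1*), -0.54 to 0.53 (*Bbs2*), -0.34 to 0.69 (*Ttc8*), -0.11 to 0.50 (*Bicc1*) and -0.82 to 0.035 (*Rfx2*). With 2 libraries per genotype and 17457452 reads in the shallowest, differences smaller than the intervals given were not detectable.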

Other observations

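Genes that build centrioles and cilia held 2 calls by edgeR among 32 tested, both lower, where 4.41% of all genes tested were called lower. DESeq2 called 3 of the 32 (15% of all genes), and 10 had an unadjusted *P* under 0.05 (28.8% of all genes). *Cep41*, a Joubert syndrome gene needed for tubulin glutamylation in cilia, had 35.6 and 33 CPM in Control and 13.9 and 13.7 CPM in *Eya1*cKO (log2 fold change -1.31, adjusted *P* = 0.025, edgeR). *Pcm1*, the scaffold of centriolar satellites, had 378 and 354 against 261 and 287 CPM (-0.42, adjusted *P* = 0.028). Among 6 other RFX genes *Rfx7* was called lower, from 130 and 128 to 88.9 and 74.7 CPM (-0.65, adjusted *P* = 0.025), and among 15 tubulin modification genes *Ttll4* was, from 185 and 188 to 142 and 122 CPM (-0.49, adjusted *P* = 0.036).

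Of 35 motile cilium genes tested edgeR called 1 higher, where 5.15% of all genes were, while DESeq2 called 4 and 9 had an unadjusted *P* under 0.05, to be read against the same shares. The gene was *Deup1*, which organizes the deuterosomes that amplify centrioles in multiciliated cells. Its reads numbered 12 and 13 in Control and 67 and 150 in *Eya1*cKO, or 0.344 and 0.347 CPM against 2.96 and 8.55 CPM (log2 fold change 3.95, SE 0.96, adjusted *P* = 0.040). The median of the motile cilium list was 0.33, and *Foxj1* was not called. The list held both directions, and some values rested on a single library. In *Eya1*cKO *Rsph1* had 0 and 119 reads and *Spag17* 0 and 98, while *Ccdc40* (log2 fold change -1.91) and *Tekt1* (-2.35) were lower without a call.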
